A study of Mus musculus with 6 samples.

Results

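The 8 genes described here encode 3 ligands and 3 receptors of the vascular endothelial growth factor (VEGF) family, with the peptide apelin and its receptor. They were taken by symbol from the 31054 features counted in every library: Vegfa, Vegfc, Pgf, Kdr, Flt1, Flt4, Apln and Aplnr. Lung samples of male mice aged 21 months, 6 in all, were dissociated and sorted, and 20000 CD45-negative and 9000 CD45-positive cells of a lung were mixed for 1 single-cell RNA library each. In the 3 samples labelled p16-DTR (C57BL/6, p16-CreERT2/R26-LSL-DTR), a tamoxifen-dependent Cre driven from p16 opens a diphtheria toxin receptor allele, so that toxin is meant to remove cells with high p16. The 3 controls (C57BL/6, p16-CreERT2) carried the Cre without that receptor allele. Both groups received tamoxifen for 5 days and, 2 weeks later, diphtheria toxin for 5 days, and lungs were taken after 2 weeks of recovery. The labels number the samples of a group without stating that each came from a different mouse, so p-values measure the spread between these samples, which may be technical. Because the sort fixed the mix of CD45-negative and CD45-positive cells, shares of cell types are shares of sorted cells and not of the lung.

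VEGF ligands are secreted proteins that act mainly on endothelium. VEGF-A binds the receptors VEGFR1 (Flt1) and VEGFR2 (Kdr), of which VEGFR2 carries most of the growth and permeability signal and VEGFR1 binds ligand tightly with weak kinase activity. Placental growth factor (Pgf) binds VEGFR1 alone, and VEGF-C (Vegfc) acts through VEGFR3 (Flt4), the receptor of lymphatic growth. Apelin (Apln) signals through the G protein-coupled receptor Aplnr and acts on endothelial growth and vessel tone. In the lung alveolus, capillary endothelium is made of aerocytes, large cells that lie along the gas exchange surface, and general capillary cells, which serve as their progenitors. Alveolar type 1 cells, the flat epithelium of gas exchange, are a known source of VEGF-A for aerocytes.

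Each library held 13482 to 17332 barcodes and 254200305 to 344421685 unique molecular identifiers (UMIs, each a counted transcript molecule), and 13025 to 16884 cells passed the filter. Marker genes that exclude the 8 genes placed 84.1% to 86.8% of them in 27 cell types, and 19 types with at least 50 cells in every library were analysed further. Orders of cell types are among these 19. Cells with the markers of more than 1 lineage (5.21% to 6.13%) were left out. Cdkn2a, the gene of p16, was higher in the whole libraries labelled p16-DTR, at 7.08, 8.56 and 7.30 UMIs per 1e6 UMIs (UPM), than in controls, at 1.15, 2.59 and 2.83, which is opposite to a loss of Cdkn2a transcripts. The tdTomato feature of the count tables had 89, 75 and 94 UMIs in libraries labelled p16-DTR and 0, 0 and 0 in controls, so it split the libraries as the labels do. Directions below therefore hold for the libraries as labelled. General capillary cells made up 44.5%, 45.6% and 54.3% of CD45-negative gated cells in libraries labelled p16-DTR and 26.1%, 42.5% and 38.0% in controls, and the exact two-sided permutation p was 0.1, the smallest that 3 libraries against 3 allow. Pericyte, venous, smooth muscle and mesothelial shares were lower without overlap, as was the share of B cells among CD45-positive gated cells.

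**Figure D1:**
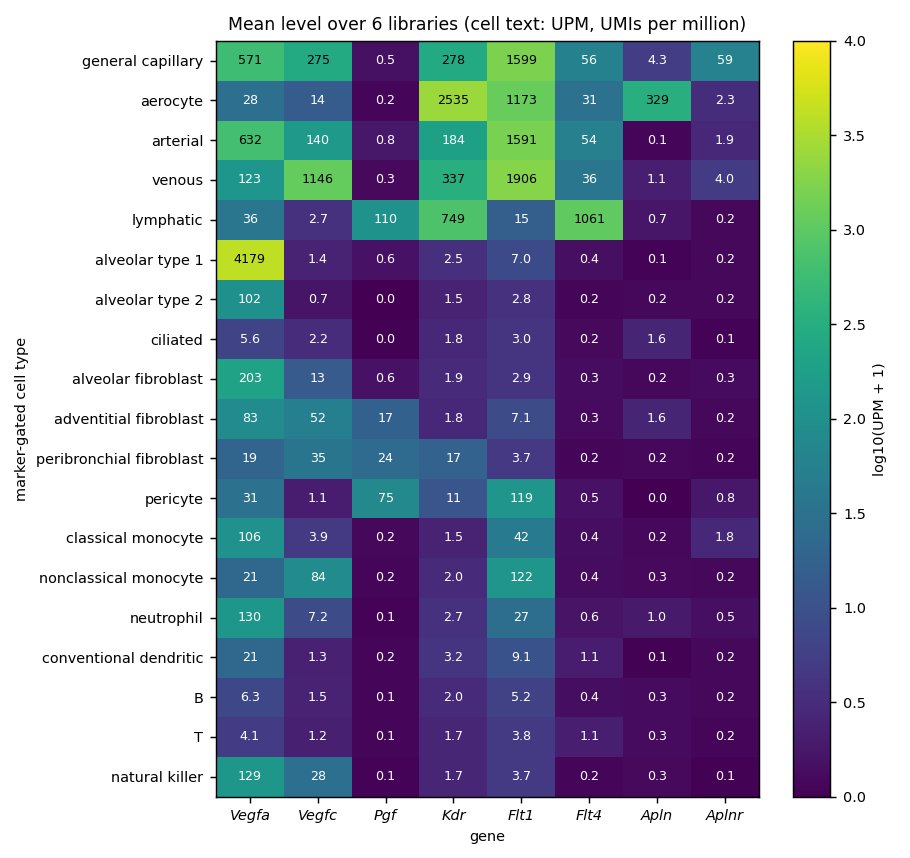
Mean level of the 8 genes over 6 libraries in each of 19 marker-gated cell types (rows), in UPM printed in the cell, with colour on a log10 scale. Apln and Aplnr stood highest in different capillary cells, 329 in aerocytes and 59.0 in general capillary cells, and Vegfa was highest in alveolar type 1 cells at 4179.

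Vegfa lies on chromosome 17, 46016993 to 46032369 on the minus strand (GENCODE M21, GRCm38, as are all gene positions here). Its level was highest in the alveolar type 1 gate, at 4179 ± 326 UPM (SD, n = 6 libraries). Library values there were 4489, 4127 and 3560 in libraries labelled p16-DTR and 4346, 4241 and 4311 in controls, and the groups overlapped. That gate is small and mixed in depth. Between 19 and 49 of its cells per library passed the epithelial markers, with median depths of 26334 to 31296 UMIs and Vegfa between 3820 and 4856 UPM, and the remaining 33 to 90 cells had medians of 834 to 1224 UMIs and Vegfa between 964 and 2153 UPM. Arterial cells (632 ± 95.4) and general capillary cells (571 ± 36.1) came next, with overlapping library ranges, followed by alveolar fibroblasts (203 ± 25.6). Neutrophils held 134 ± 28.4 in libraries labelled p16-DTR and 125 ± 13.3 in controls, while natural killer cells (79.6 ± 15.6 and 179 ± 30.8) and venous cells (147 ± 22.9 and 99.9 ± 7.94; SD, n = 3 each) differed by group. Aerocytes, which the alveolar type 1 cells face, held 28 UPM. By number of molecules the order was different: general capillary cells carried 48.6% of all Vegfa UMIs of the 6 libraries, alveolar fibroblasts 21.8% and alveolar type 1 cells 5.67%, in the sorted mix. General capillary cells carried more than alveolar fibroblasts in 5 of 6 libraries: control replicate 1 had 28029 Vegfa UMIs in alveolar fibroblasts and 23101 in general capillary cells, while the capillary cells of the other libraries had 27343 to 40562 and their fibroblasts 8516 to 15734.

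Vegfc (chromosome 8, 54077606 to 54187096, plus strand) was highest in venous endothelium. Venous cells held 1146 ± 139 UPM (SD, n = 6), general capillary cells 275 ± 27.9 and arterial cells 140 ± 35.2, with no overlap between venous and capillary libraries or between capillary and arterial ones. Nonclassical monocytes, which patrol the vessel wall, held 84.0 ± 20.5. Pgf (chromosome 12, 85166635 to 85177790, minus strand) was low in the whole library, at 3.34 to 4.29 UPM. Its highest levels were in lymphatic endothelium (110 ± 29.5) and pericytes (74.8 ± 23.3), the contractile cells that wrap capillaries, and these ranges overlapped. Peribronchial fibroblasts (24.4) and adventitial fibroblasts (16.6) followed. Smooth muscle cells, too few to be tested, carried 9.91% of Pgf UMIs and stood at 66.7 ± 25.7 in libraries labelled p16-DTR against 83.5 ± 6.89 in controls (SD, n = 3 each), with overlap.

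Among the receptors, Kdr (chromosome 5, 75932827 to 75978458, minus strand) was concentrated in aerocytes, at 2535 ± 182 UPM (SD, n = 6). Lymphatic cells held 749 ± 25, above venous (337 ± 42.5) and general capillary cells (278 ± 38.0), whose ranges overlapped. Flt1 (chromosome 5, 147561604 to 147726011, minus strand) was spread more evenly over blood endothelium. Its level was 1906 ± 134 in venous, 1599 ± 85.3 in general capillary, 1591 ± 95.8 in arterial and 1173 ± 97.8 in aerocyte cells, and 14.0 to 25.2 in lymphatic cells of libraries labelled p16-DTR and 5.04 to 14.7 in those of controls. Outside endothelium, the 19 types were led by nonclassical monocytes (122 ± 31.2) and pericytes, whose groups lay apart (124 to 223 in libraries labelled p16-DTR and 50.2 to 56.4 in controls). Alveolar macrophages, with too few cells to be tested, held more, 257 ± 92.8 against 329 ± 58.5 (SD, n = 3 each), with overlap. Flt4 (chromosome 11, 49609263 to 49652739, plus strand) was at 1061 ± 74.4 in lymphatic cells, far above general capillary (55.8 ± 5.39) and arterial cells (54.0 ± 9.0). Kdr and Flt4, whose proteins can pair on lymphatic endothelium, were found together in 92.2% ± 1.28 of lymphatic cells after cells were thinned to 5000 UMIs, with shallower cells left out (92.4% ± 2.27 without thinning). Thinned shares throughout are expected values over random draws of UMIs and not counts of observed cells. Those of T cells, taken to lack both, were 0.894% for Kdr, 0.605% for Flt4 and 0.0014% for the pair. Median depths per library were 12683 to 13471 UMIs in lymphatic cells and 14903 to 16568 in T cells.

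Apln (chromosome X, 48025146 to 48034853, minus strand) and Aplnr (chromosome 2, 85136225 to 85139923, plus strand) split between the capillary types. Aerocytes carried 82.0% of all Apln UMIs, and general capillary cells carried 86.8% of all Aplnr UMIs. Apln stood at 329 ± 33.1 UPM in aerocytes and 4.34 ± 1.75 in general capillary cells. Aplnr stood at 59.0 ± 11.1 in general capillary cells, 3.99 ± 1.84 in venous cells and 2.30 ± 0.680 in aerocytes, of which the last pair overlapped. After thinning, 68.1% ± 3.16 of aerocytes held an Apln UMI, and 0.430% ± 0.164 held UMIs of both genes (87.5% and 2.55% without thinning). T cells served as a type taken to lack these genes: their thinned shares were 0.173% for Apln and 0.0877% for Aplnr, at a median depth of 15668 UMIs beside 21566 in aerocytes.

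Genes with the most similar pattern were ranked by Pearson's r of log2(UPM + 1) over 114 points, the 19 types in 6 libraries, among 15468 genes. Points of a library share its depth and preparation, and points of a type share its markers, so r is a description. Kdr was followed most closely by Robo4 (0.96), Myct1 (0.95) and Ecscr (0.95), which are endothelial genes. Flt4 went with Bcl6b (0.94), Stab1 (0.94) and Wscd1 (0.94), and Pgf with Ak4 (0.93), Smarca1 (0.89) and Tfpi2 (0.89). Flt1 went with Klhl5 (0.95), Hpgd (0.91) and Adcy4 (0.88), Apln with Rprml (0.96), Gm40639 (0.95) and Slc5a12 (0.94), and Aplnr with Glp1r (0.92), Otc (0.87) and Ankrd63 (0.84). Hpgd, Rprml and Glp1r were gating markers of the capillary types. Vegfa went with Pgap2 (0.77), Ndst1 (0.76) and Agrn (0.72), and Vegfc with Fam181b (0.81), Jam2 (0.79) and Gm20631 (0.79).

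The main comparison asked whether these genes differed between the libraries labelled p16-DTR and controls. In whole libraries, where fewer cells of a type and less RNA per cell cannot be told apart, 0 of 8 genes were called at an edgeR quasi-likelihood adjusted p under 0.05, against a background of 0.0% (0 of 21630 genes). At an unadjusted p under 0.05 there were 0 of 8 genes and 5043 of 21630, and DESeq2 called 0 of 8 and 2769 of 21630. Flt1 was at 479, 533 and 510 UPM in libraries labelled p16-DTR and 305, 534 and 475 in controls (log2 fold change 0.26, SE 0.19, edgeR adjusted p 0.421). Control replicate 1 was lowest, and the groups overlapped, as they did for each of the 8 genes, where 31.1% of all genes did not overlap.

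Within cell types, 86 of 152 gene and type pairs had enough counts to be tested, and 4 were called (4.65%), against 0.537% of all gene and type pairs. Of these, 2 were higher and 2 lower in libraries labelled p16-DTR. Groups did not overlap in 20 of the 86 pairs (23.3%), near the 19.1% of all pairs. The 4 calls were Flt1 in pericytes, Vegfa in natural killer cells, Vegfa in venous cells and Aplnr in general capillary cells. The first and second were called in each of the 6 fits that left out 1 library. Without p16-DTR replicate 1, 2 or 3 or without control replicate 3, 2 pairs in all were called, and with cells of more than 1 lineage kept, 1 pair.

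**Figure D2:**
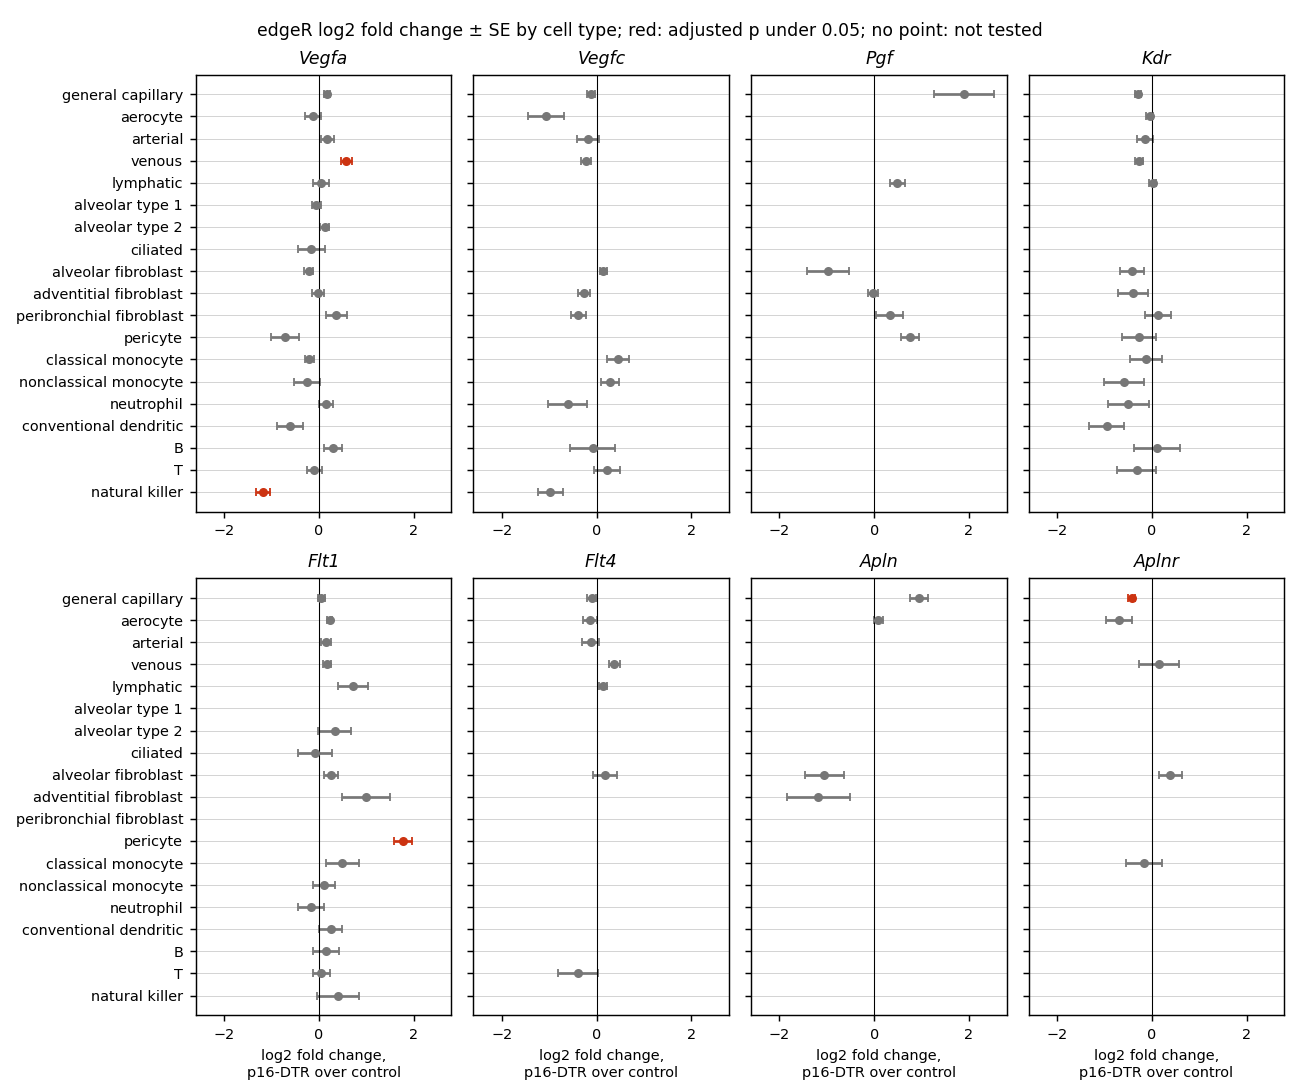
Log2 fold change (libraries labelled p16-DTR over control, horizontal axis) with its SE for each gene in each type where it could be tested. The 4 red points are the called pairs, from 1.78 for Flt1 in pericytes to −1.19 for Vegfa in natural killer cells.

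In pericytes, Flt1 was 3.43-fold higher in libraries labelled p16-DTR. Its level was 124, 204 and 223 UPM in them and 56.4, 50.2 and 54.6 in controls, so the lowest value of the first group was above the highest control, and replicate 1 was the lowest of its group. The log2 fold change was 1.78 (SE 0.18, edgeR adjusted p 0.00163), where 0.447% of genes tested in pericytes were called. The share of pericytes with a Flt1 UMI was 31.2% ± 6.27 against 12% ± 1.24 after thinning (39.0% and 19.6% without), and 1.87% of T cells had one, at median depths of 15698 and 15668 UMIs. The gate held 54, 64 and 65 pericytes against 113, 136 and 132 in controls. Their median depths were 15822.5 to 17913.5 UMIs against 15194 to 15503, so the shares without thinning also carry a difference in depth. Of the 8 endothelial markers, 6 were at 14.4 UPM or lower in every library of this gate and overlapped between groups (Pecam1, Cdh5, Cldn5, Egfl7, Ramp2 and Tie1). Pecam1 was between 3.33 and 11.5 and Cdh5 between 2.45 and 9.51, and the receptor Kdr was at 9.59 ± 2.88 against 11.5 ± 3.44 (SD, n = 3 each). The 2 others were higher in level: Eng overlapped at 421 to 503 against 460 to 531, and Esam was higher in libraries labelled p16-DTR without overlap, 122 to 157 against 95.3 to 106. All 8 summed to 614 to 658 against 594 to 660. The 7 smooth muscle markers were higher, 1737 to 1972 against 1170 to 1471, with 4 of the 7 not overlapping and among them Acta2 (363 against 151) and Tagln (294 against 154). The 10 alveolar fibroblast markers were lower, 729 to 861 against 1123 to 1259, with 7 of 10 not overlapping. The part of these other markers in the Flt1 difference was not tested. With cells of more than 1 lineage kept, the log2 fold change was 1.11 and the adjusted p 0.118. Pgf, a ligand of VEGFR1, was in the same gate at 87.6, 92.0 and 102 against 70.5, 56.9 and 40.2, without overlap (log2 fold change 0.75, SE 0.18, edgeR adjusted p 0.109).

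Bases that precede the start of Flt1 in RefSeq's table (GRCm38.p6, chr5:147726012-147726261, minus strand, 250 bases) are shown because Flt1 had the largest called difference among the 8 genes. The 3 motifs searched, on both strands and with matches in capitals, were ACGTG and GCGTG, core letters bound by hypoxia-inducible factors, and TGACGTCA, the cyclic AMP response element. They were chosen after the window was read.
Flt1: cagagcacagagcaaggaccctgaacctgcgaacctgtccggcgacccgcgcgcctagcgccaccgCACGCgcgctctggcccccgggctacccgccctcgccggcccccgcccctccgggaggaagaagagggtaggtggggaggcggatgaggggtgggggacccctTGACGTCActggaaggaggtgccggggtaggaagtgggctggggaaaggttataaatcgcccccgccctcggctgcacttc
The window held 1 GCGTG match, as its reverse complement, and 1 TGACGTCA match 81 bases before the start. Of 32851 such windows in the table, 28.2% held GCGTG, 16.6% ACGTG and 1.55% TGACGTCA.

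In natural killer cells, Vegfa fell to 0.439 times the control level. Its level was 96.5, 76.5 and 65.8 UPM in libraries labelled p16-DTR and 215, 162 and 161 in controls, and the highest value of the first group was below the lowest control. The log2 fold change was −1.19 (SE 0.15, edgeR adjusted p 0.00318), where 0.935% of genes were called in this gate. Thinned shares of cells with a Vegfa UMI were 21.4% ± 3.69 against 39.0% ± 5.13 (33.4% and 55.7% without thinning), and T cells had 1.96%, with a median depth of 13936 UMIs in natural killer cells. The gate held 189, 181 and 264 natural killer cells against 102, 75 and 262 in controls. Their median depths were 12886 to 13637 UMIs against 14399.5 to 15838, so the shares without thinning also carry a difference in depth. Vegfc in the same cells was at 19.9, 24.1 and 16.6 against 39.5, 19.4 and 50.5, with overlap (log2 fold change −0.98, SE 0.26, adjusted p 0.123). Summed natural killer markers were higher, 12878 to 14184 against 10657 to 12220, with Gzma at 8045 against 6483 and Eomes lower at 319 against 397. Summed dendritic cell markers were lower, 37.9 to 60.1 against 80.8 to 122, nearly all of it Zbtb46, while Xcr1 was at 0 and Flt3 and Clec9a were at most at 0.409. The endothelial markers summed to 89.9 to 117 against 145 to 155, of which Pecam1 was the one without overlap (68.6 against 115) and Cdh5 was at 5.21 against 5.19. The part of these markers in the Vegfa difference was not tested.

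In venous endothelium, Vegfa was 1.49-fold higher. It stood at 139, 129 and 173 UPM in libraries labelled p16-DTR and 104, 105 and 90.7 in controls, without overlap, and replicate 3 was the highest of the first group. The log2 fold change was 0.58 (SE 0.11, edgeR adjusted p 0.0364), where 1.88% of genes were called. Thinned shares of cells with a Vegfa UMI were 42.5% ± 3.19 against 33.1% ± 2.28 (70.6% and 60.8% without thinning). The call was lost in each of the 6 fits without 1 library (adjusted p 0.0665 to 0.117, highest without p16-DTR replicate 3) and with cells of more than 1 lineage kept (0.0742). Summed venous markers were higher in this gate, 9054 to 9852 against 8436 to 9053, and the 8 endothelial markers were too, 7826 to 8188 against 6941 to 7465. General capillary markers, of cells with more Vegfa, overlapped at 5589 to 6759 against 5360 to 5688, with 3 of 6 higher and 1 lower without overlap, and their part in the difference was not tested. The receptors Kdr (331, 303 and 277 against 355, 366 and 393) and Flt4 (41.6, 39.2 and 39.7 against 35.5, 29.2 and 29.6) did not overlap either, and neither passed (log2 fold changes −0.27, SE 0.09, and 0.38, SE 0.11, edgeR adjusted p 0.188 and 0.139).

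The 250 bases before the outermost listed start of Vegfa (chr17:46032378-46032627, minus strand, same table) are shown beside the Flt1 window because Vegfa had 2 called pairs, in opposite directions.
Vegfa: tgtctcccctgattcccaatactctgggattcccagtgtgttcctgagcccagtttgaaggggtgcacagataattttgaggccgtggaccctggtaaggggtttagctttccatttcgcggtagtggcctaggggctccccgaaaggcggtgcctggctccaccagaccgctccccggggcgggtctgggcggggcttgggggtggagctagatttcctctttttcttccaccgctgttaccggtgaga
None of the 3 motifs was in these letters. The table lists another start of Vegfa inside the gene, whose window (chr17:46025164-46025413, not shown) held 1 ACGTG and 1 GCGTG match. RefSeq's table held windows for 7 of the 8 genes.

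In general capillary cells, Aplnr was lower. Its level was 48.9, 52.1 and 47.6 UPM in libraries labelled p16-DTR and 62.3, 72.9 and 70.5 in controls, without overlap, and control replicate 1 was nearest to the other group. The log2 fold change was −0.43 (SE 0.07, edgeR adjusted p 0.0405), where 1.73% of genes were called, and the fold was 0.744. Thinned shares of cells with an Aplnr UMI were 18.1% ± 0.558 against 23.9% ± 1.75 (32.9% and 40.1% without thinning). Fits without 1 library gave adjusted p from 0.0414 to 0.137, and the call held in 1 of 6, without control replicate 1. It was lost with cells of more than 1 lineage kept (0.0567). Markers of the gate itself overlapped, 9646 to 11151 against 10081 to 10338, while summed venous markers (606 to 735 against 482 to 554) and lymphatic markers (974 to 1129 against 592 to 799) were higher without overlap, and their part in the difference was not tested.

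Of the other 7 genes in general capillary cells, Kdr and Apln came nearest to a call. Kdr was at 258, 251 and 227 UPM against 320, 295 and 315, without overlap (log2 fold change −0.29, SE 0.06, edgeR adjusted p 0.0540). It was called with library-size scaling (0.0451), without the low-count filter (0.0356) and by DESeq2 (0.000996). Apln was at 4.62, 7.40 and 4.96 against 2.90, 3.30 and 2.85, without overlap (log2 fold change 0.95, SE 0.19, edgeR adjusted p 0.0539). It was called without the low-count filter (0.0186) and by DESeq2 (0.000316), and in 0 of 6 fits without 1 library, as was Kdr. Its thinned share of cells was 1.07% ± 0.237 against 0.926% ± 0.205 (2.42% and 2.26% without thinning, with 0.173% of T cells after it), so few cells held it in either group. Vegfa (596, 600 and 586 against 545, 588 and 509), Flt1 (1574, 1642 and 1589 against 1468, 1596 and 1728) and Vegfc (289, 259 and 231 against 304, 266 and 299) overlapped and were not called. Pgf had the largest fold of the 8 but few molecules, 34, 39 and 85 UMIs (0.584, 0.642 and 1.23 UPM) against 4, 27 and 4 (0.0945, 0.489 and 0.0744), without overlap. It was not called (log2 fold change 1.89, SE 0.63, edgeR adjusted p 0.131), except by DESeq2 (0.0451). Its log2 fold change was 3.32 without control replicate 2, 1.46 to 2.09 without any other single library, and 1.09 with the stricter gate. Groups did not overlap for 4 of the 8 genes, where 30.0% of all genes in this gate did not.

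**Figure D3:**
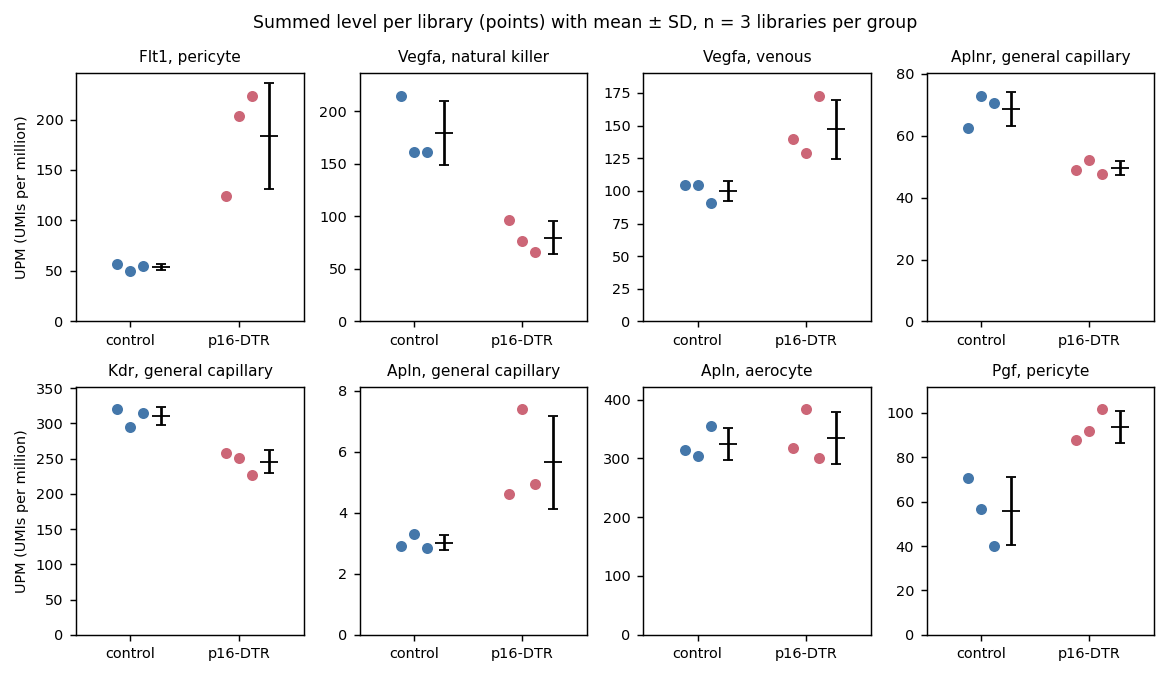
Levels in UPM (vertical axis, from 0) in each of 3 libraries per group (points), with mean ± SD, for the 4 called pairs and 4 others. Flt1 in pericytes is spread from 124 to 223 in libraries labelled p16-DTR and stays between 50.2 and 56.4 in controls, while Apln in aerocytes overlaps.

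In aerocytes edgeR called 0 of 7 tested genes, where 0.73% of all genes were called. Of the 7, 3 had an unadjusted p under 0.05, and DESeq2 called 1. Counts of these 2 kinds over all genes are given here for whole libraries only, so those by cell type have no background beside them. Kdr, the receptor that marks these cells, was at 2468, 2689 and 2238 UPM against 2628, 2462 and 2725, with overlap (log2 fold change −0.04, SE 0.07, edgeR adjusted p 0.845). Apln was at 319, 384 and 301 against 314, 304 and 356, also with overlap (0.09, SE 0.09, adjusted p 0.705). Flt1 was at 1194, 1336 and 1211 against 1098, 1064 and 1132, without overlap (0.22, SE 0.06, adjusted p 0.113). It was the gene called by DESeq2 (0.0234), and edgeR called it without the low-count filter (0.0251) but in 0 of 6 fits without 1 library. Vegfc was low, at 9.62, 11.2 and 3.83 against 30.1, 14.0 and 12.9, without overlap (−1.07, SE 0.38, adjusted p 0.211). It was called without the low-count filter (0.000835), and without control replicate 1 its log2 fold change was −0.61. In lymphatic cells edgeR called 0 of 5, where 0.285% of genes were called (2 with an unadjusted p under 0.05, 0 by DESeq2). Flt4 was at 1057, 1148 and 1137 against 953, 1063 and 1011, and Pgf at 114, 164 and 108 against 82.4, 84.8 and 105, without overlap (log2 fold change 0.49, SE 0.16, adjusted p 0.223). In arterial cells edgeR called 0 of 5, where 0.193% of genes were called (0 with an unadjusted p under 0.05, 0 by DESeq2). Vegfa in alveolar fibroblasts (204, 186 and 168 against 240, 200 and 222) was not called either (−0.22, SE 0.10, adjusted p 0.222).

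Whether a difference depended on the endothelial type was tested directly for 16 combinations, each gene in aerocytes or venous cells against general capillary cells, in 1 model over both types with library as a term. Apln was the 1 of 16 called, where 0.231% of genes were called in the aerocyte contrast and 0.0987% in the venous one. Its effect was lower by 0.86 on the log2 scale in aerocytes than in general capillary cells (SE 0.13, edgeR adjusted p 0.0251). Next by adjusted p were the aerocyte contrast of Kdr, 0.25 (SE 0.06, adjusted p 0.210), and the venous contrast of Vegfa, 0.41 (SE 0.10, adjusted p 0.246). Among larger but less precise contrasts, the aerocyte one of Vegfc was −0.90 (SE 0.33, adjusted p 0.406) and the venous one of Flt4 0.48 (SE 0.14, adjusted p 0.370). The Apln call was lost without p16-DTR replicate 1 (0.0537), p16-DTR replicate 3 (0.0738), control replicate 1 (0.0844) or control replicate 3 (0.107), and with the stricter gate (0.155). Summed aerocyte markers in the general capillary gate overlapped, 444 to 488 against 405 to 488, and their part in the difference was not tested. With the stricter gate, Apln in general capillary cells had an edgeR adjusted p of 0.109.

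The wider pathway was described by 5 lists over the 5 endothelial types, where 1.03% of all gene and type pairs were called. The lists were chosen with earlier results of these data known, so their counts are descriptions and not independent support. The types come from the same libraries, and Egr3 was called in both venous and general capillary cells. Genes known to be induced by VEGF in cultured endothelium were called in 8 of 58 pairs, 7 lower and 1 higher, where 0.586% of all pairs were called lower and 0.448% higher. In venous cells 5 of 10 tested genes of this list fell and 0 rose, with a median log2 fold change of −0.69 beside 0.00 over all genes, where 1.14% of genes were called lower. Nr4a1, a nuclear receptor, was at 65.8, 93.1 and 94.6 UPM against 227, 220 and 201 (log2 fold change −1.33, SE 0.13, edgeR adjusted p 0.00197), and this call held in 6 of 6 fits without 1 library. Rcan1, a calcineurin inhibitor, was at 223, 236 and 256 against 466, 335 and 391 (−0.72, SE 0.12, adjusted p 0.0241). Egr3, a transcription factor, was at 6.73, 13.2 and 12.7 against 50.5, 27.3 and 30.4 (−1.71, SE 0.29, adjusted p 0.0241), and the homeobox gene Hlx fell by 1.48 (SE 0.30, adjusted p 0.0384). The fifth call, outside the rule for named genes, was the protease gene Adamts1, at 628, 714 and 706 against 907, 884 and 1055 (−0.45, SE 0.10, adjusted p 0.04998). The groups did not overlap for any of these 5. Without 1 library, the call of Egr3 held in 3 of 6 fits, those of Rcan1 and Hlx in 2 of 6 each and that of Adamts1 in 0 of 6. Nr4a1 and Egr3 are also immediate early genes that many stimuli raise.

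In general capillary cells 2 of 13 genes of the list fell and 0 rose, with a median of −0.44 beside −0.01 over all genes, where 0.936% of genes were called lower. Egr3 was at 7.04, 7.31 and 7.11 UPM against 21.3, 14.2 and 18.3 (log2 fold change −1.28, SE 0.13, edgeR adjusted p 0.0203). Apold1, an endothelial early response gene, was at 24.6, 26.3 and 36.9 against 50.2, 51.2 and 64.0 (−0.87, SE 0.16, adjusted p 0.0494). The Egr3 call held in 4 of 6 fits without 1 library and the Apold1 call in 0 of 6. In aerocytes 1 of 12 changed, Unc5b, a guidance receptor, which rose from 46.4, 52.0 and 49.8 in controls to 61.9, 74.6 and 68.0 (0.51, SE 0.08, adjusted p 0.0287), where 0.381% of genes were called higher, and the call held in 2 of 6 such fits. Angpt2, Dll4 and Esm1, picked by name from the list as tip cell genes, had 0 edgeR calls in 12 pairs (3 with an unadjusted p under 0.05). Over all pairs of these 5 types 1.03% were called, so 0 of 12 is near that share and does not show these genes unchanged. DESeq2 called 2 of the 12, Angpt2 in general capillary and in venous cells. Over the whole list in the 5 types, 27 of 58 pairs had an unadjusted p under 0.05 and DESeq2 called 14. The shares of all genes at these measures in these types are not given here, so neither count is read as a result. In whole libraries they were large, 5043 and 2769 of 21630 genes. In arterial and lymphatic cells edgeR called 0 of 12 and 0 of 11 genes of the list, 3 and 4 of which had an unadjusted p under 0.05, and DESeq2 called 0 in each.

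**Figure D4:**
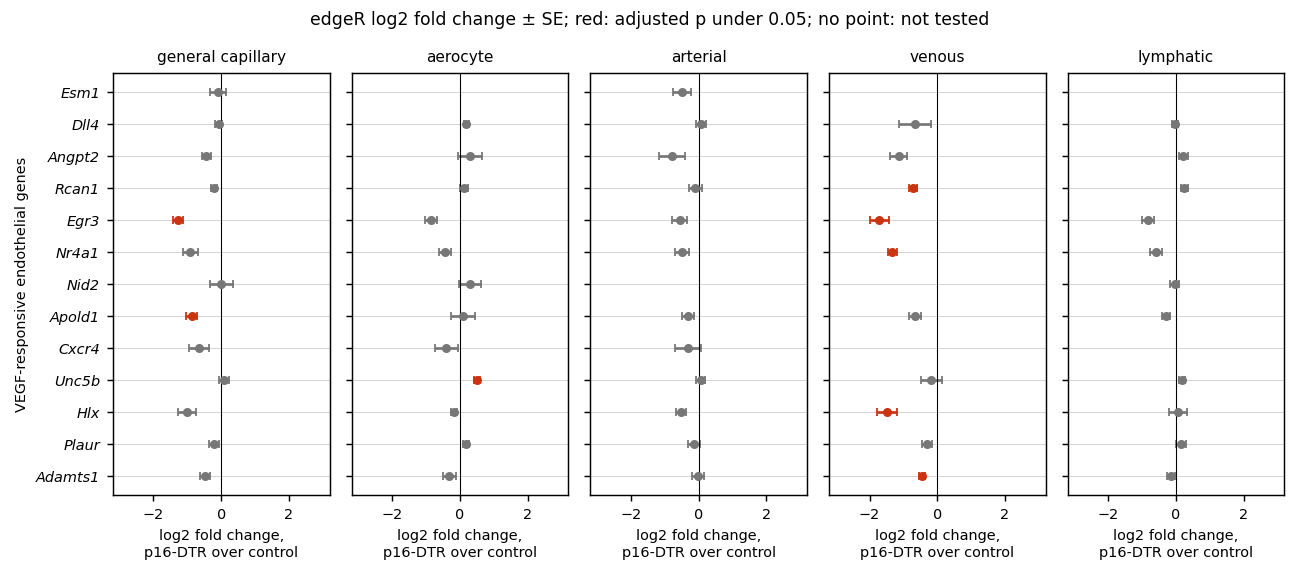
Log2 fold change (libraries labelled p16-DTR over control, horizontal axis) with SE for 13 genes known to respond to VEGF in 5 endothelial types, red where the edgeR adjusted p was under 0.05. In venous cells all 10 tested genes lie below 0 and 5 are red, and in aerocytes Unc5b alone is red, above 0.

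Among the signalling genes of the apelin receptor, 3 of 40 pairs were called, each higher, where 0.448% of all pairs were called higher. The list as a whole did not rise: 21 of the 40 log2 fold changes were below 0. Its median was −0.01 in general capillary cells, 0.01 in aerocytes and −0.04 in venous cells. Arrb1, the beta-arrestin that desensitises the receptor, rose in general capillary cells from 148, 143 and 145 UPM in controls to 167, 186 and 195 (log2 fold change 0.37, SE 0.06, edgeR adjusted p 0.0435). It rose in venous cells too (0.53, SE 0.11, adjusted p 0.0404). Gnai1, an inhibitory G protein subunit, rose in aerocytes (0.57, SE 0.09, adjusted p 0.0270). Without 1 library, Arrb1 was called in 0 of 6 fits in general capillary and 1 of 6 in venous cells, and Gnai1 in 1 of 6. Of the transducers downstream of VEGF receptors, 1 of 76 pairs was called (1.32%), near the 1.03% of all pairs: Prkca, a protein kinase C, fell in aerocytes from 264, 247 and 264 to 191, 194 and 179 (−0.42, SE 0.05, adjusted p 0.0206), and the call held in 3 of 6 fits without 1 library. Oxygen sensing genes, which control Vegfa transcription, had 0 edgeR calls in 32 pairs (3 with an unadjusted p under 0.05, 0 by DESeq2). Other ligands and co-receptors (Vegfb, Vegfd, Apela, Nrp1 and Nrp2) had 0 edgeR calls in 20 pairs (4 with an unadjusted p under 0.05, 2 by DESeq2). The 12 calls of these lists became 3, 4 and 2 without p16-DTR replicates 1, 2 and 3, 3 without control replicate 1, 7 without control replicate 3 and 4 with cells of more than 1 lineage kept.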

How the data were processed

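Lung cells of 6 samples, 1 library each, were counted with Cell Ranger 8.0.1, per the file headers and the submitters' processing notes, which also name the build mm10. The deposited values are raw UMI counts per gene and barcode. How barcodes were called as cells, and whether intronic reads were counted, is not given in the sources used here. Each 3' library counts a molecule once, and whether levels depend on gene length was not tested. Transcript isoforms, such as the soluble form of Flt1, cannot be told apart.

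Barcodes with fewer than 300 genes or 500 UMIs, or above 15% mitochondrial UMIs, were dropped. A cell passed a lineage with at least 4 of 8 markers. It took the best-scoring type of that lineage, with at least 3 type markers and a score margin of 0.1. The 832 to 1237 cells per library that passed no lineage were scored over all 27 types. They needed at least 4 type markers and the same margin. Between 4.17% and 4.80% of cells were left out by that margin and 6.05% to 7.05% of gated cells had a margin between 0.1 and 0.2. No doublet caller was run. Counts were summed by library and type and tested with edgeR 4.0.16 (quasi-likelihood, TMM, filterByExpr, Benjamini-Hochberg over all genes, threshold 0.05), with DESeq2 1.42.0 as an alternative. On simulated general capillary counts (15830 genes, 200 changed), 92% of changes of 1 on the log2 scale were recovered, 72% of those of 0.5, and 13 calls were false. The changed genes were drawn from those with high counts, with the fitted trend as dispersion, in the gate with the most cells. These shares therefore do not carry over to genes with low counts or to smaller gates. Shares of cells were thinned to 5000 UMIs, leaving out 3253 and 3384 shallower cells (libraries labelled p16-DTR and control). Median depths were 17117 and 17891 UMIs. Libraries shared 59 to 94 barcodes pairwise.

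The genes, lists and tests were chosen with earlier results of these data known. Named were the 8 genes, called list genes of endothelial types (at most 4 per list and type, by adjusted p) and the 3 genes most like each of the 8. Alternatives were other scalings, no low-count filter, a stricter cell filter or gate, cells of more than 1 lineage kept, a replicate block and leaving out each library. Secretory, mesothelial, smooth muscle, macrophage, plasma, basophil and platelet gates, with under 50 cells in a library, were not tested.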

Additional observations from a re-analysis of the deposited data

Results flagged for a closer look

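The difference in effect of Apln between aerocytes and general capillary cells was singled out because the test of the difference itself passed its threshold: −0.86 on the log2 scale (SE 0.13, edgeR adjusted p 0.0251), with Apln overlapping in aerocytes. Within general capillary cells Apln was 1.93-fold higher in libraries labelled p16-DTR, without overlap, but was not called (edgeR adjusted p 0.0539), and its share of cells was 1.07% ± 0.237 against 0.926% ± 0.205 after thinning (2.42% and 2.26% without). The difference in effect was not called in 4 of 6 fits without 1 library (adjusted p up to 0.107) or with the stricter gate (−0.63, adjusted p 0.155). The level in general capillary cells was 2.85 to 7.40 UPM beside 301 to 384 in aerocytes. Single libraries were not tested for outlying values, since groups held 3 libraries each. Whole libraries of a group were compared by chi-square per degree of freedom, which is larger where 2 libraries are less alike. Control replicate 1 stood at 352 and 296 against control replicates 2 and 3, which stood at 87.8 against each other. Pairs of libraries labelled p16-DTR stood at 116 to 155.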

How the results depend on the processing

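In whole libraries 0 of 8 genes were called under each of the 12 alternatives run. The 3 genes called in at least 1 type became 6 by DESeq2, 7 without the low-count filter and 1 with cells of more than 1 lineage kept. The 4 called pairs became 8 by DESeq2, 12 without the low-count filter and 1 with cells of more than 1 lineage kept. The 1 call among 16 effect differences became 5 without the low-count filter and 0 with the stricter gate. Without that filter, calls over all genes rose too, from 35 of 15177 to 611 of 24413 in the aerocyte contrast. In the venous contrast they rose from 15 of 15195 to 388 of 24308. The 12 list calls in endothelial types became 24 by DESeq2, 28 without the low-count filter and 4 with cells of more than 1 lineage kept. In whole libraries DESeq2 called 2769 of 21630 genes, where edgeR called 0. Shares of all genes by cell type under these alternatives are not given here, so the rises are not a result about these genes. Leaving out 1 library gave 2 to 3 genes, 2 to 3 pairs, 0 to 1 effect differences and 2 to 9 list calls. It also gave 7 to 10 of 27 cell types with shares that did not overlap (6 in full). With fewer libraries non-overlap is more frequent even where nothing differs, so that rise is not a result. Pairs of replicate numbers correlated between −0.28 and 0.19, and in 0 of 20 fits did all 3 pairs exceed 0.1. Pairs of unlike numbers correlated between −0.22 and 0.21. In natural killer cells the same-number pairs stood at 0.062, 0.145 and 0.170, and every other pair at 0.0155 or lower. Same-number pairs were also the highest in T cells, so these values do not exclude pairing. With a replicate block 2 pairs were called, with Vegfa in venous cells at an adjusted p of 0.0839 and Aplnr in general capillary cells at 0.0881. Whole-library directions turned for values near 0: Vegfc was −0.029 with library-size scaling, and without 1 library Vegfc lay from −0.075 to 0.080, Pgf from −0.13 to 0.014, Apln from −0.52 to 0.12 and Aplnr from −0.34 to 0.12 (log2). The cause of these changes was not tested.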

Other observations

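Outside endothelium, 3 of 554 list gene and type pairs were called (0.542%), near the 0.537% of all gene and type pairs, so these calls are not a result about the lists. The 3 were chosen for mention after their values were seen. In peribronchial fibroblasts they were 1 of 7 oxygen sensing genes tested and 1 of 14 signal transducers, where 1.17% of all genes were called, and in natural killer cells 1 of 14 signal transducers, where 0.935% were called. Egln3, an oxygen-dependent prolyl hydroxylase, stood in peribronchial fibroblasts at 104, 107 and 113 UPM in libraries labelled p16-DTR and 35.3, 42.7 and 69.3 in controls (log2 fold change 1.17). Prkca stood in the same cells at 445, 523 and 553 against 218, 272 and 324 (0.94). Plcg1, which couples VEGFR2 to calcium, was in natural killer cells at 13.3, 6.55 and 15.8 against 3.34, 2.52 and 2.35 (2.17). Groups did not overlap for these 3. Kdr stood in mesothelial cells, too few to be tested, at 367 ± 122 against 334 ± 110 UPM (SD, n = 3 each), with overlap.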
